A study of Rattus norvegicus with 16 samples.

Results

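The results below concern the difference between cortex and hippocampus in the response to 12 weeks of dietary curcumin. The members were chosen by label: of the 16 arrays of the study, 8 come from rats killed after 12 weeks, 2 for each combination of tissue and diet. The groups were the cortex of rats on curcumin chow and the cortex of rats on control chow, and the hippocampus of rats on curcumin chow and the hippocampus of rats on control chow, all from male Sprague-Dawley rats that were 15 months old when the study began. The other 8 arrays hold the same groups after 6 weeks and entered the estimate of the spread. Expression was measured on Affymetrix arrays as RMA values on the log2 scale, for 27342 transcript clusters (sets of probes that stand for 1 transcript each). By the paper, a diet group held 6 rats, and both cortex and hippocampus were dissected from them. The 2 tissues of a diet thus come from the same rats, while the main test described below treated their arrays as independent. The tissue of 3 rats was pooled for each RNA sample, so that no value belongs to a single animal. By the labels the paired arrays are biological replicates, but the design text also mentions duplicate arrays of an RNA sample. The p-values therefore measure only the spread between these arrays, which may be technical. In pieces of tissue, a lower share of a cell type and less RNA per cell cannot be told apart.

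Curcumin is a polyphenol of turmeric that is known for antioxidant and anti-inflammatory effects and reaches the brain in small amounts. The cerebral cortex and the hippocampus are built of similar classes of cells, namely glutamatergic projection neurons, GABAergic interneurons, astrocytes, oligodendrocytes, microglia and vessels, in different layouts. The hippocampus holds the granule cells of the dentate gyrus and the pyramidal cells of the CA fields, which carry spatial memory, and its dorsal and ventral poles differ in connections and in gene expression.

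For each cluster, the effect of curcumin was the mean of the 2 curcumin arrays minus the mean of the 2 control arrays, in each tissue by itself. The tissue difference was the effect in cortex minus the effect in hippocampus. A positive value thus means a higher effect in cortex, and a value of 1 stands for effects that differ by a factor of 2. A call was made where limma, fitted to all 16 arrays, gave a p under 0.05 after Benjamini-Hochberg adjustment over all 27342 clusters.

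Arrays of 1 group correlated at 0.992 to 0.995 after 12 weeks, and 163 to 342 clusters differed by 1.5-fold or more between the 2 arrays of a group. The hippocampal label was checked with Prox1 and C1ql2, genes of dentate granule cells, which ranged from 7.31 to 7.87 and from 7.93 to 8.77 in hippocampus, against 5.71 to 6.31 and 5.93 to 6.40 in cortex. Tdo2, also listed for granule cells, lay near the lower end of the scale in both tissues (4.67 to 4.75 in hippocampus and 4.69 to 4.86 in cortex). Fibcd1, a gene of CA1 pyramidal cells, was at 6.94 to 7.46 in hippocampus and at 6.12 to 6.17 in cortex. The cortical label was checked by these low values only, since none of 8 measured genes of cortical projection neurons was higher on every cortical array than on every hippocampal one. The mean level over these 8 genes was lower on every cortical array (7.69 to 7.89) than on every hippocampal array (8.18 to 8.33). Among them Cux1 ran from 7.16 to 7.56 in cortex and from 6.79 to 7.22 in hippocampus, and Rasgrf2 from 8.57 to 9.31 in cortex and from 9.01 to 9.25 in hippocampus. Genes of striatal projection neurons stood apart on 1 array of the cortex. Their mean level over 10 measured genes was 6.91 and 7.41 on the curcumin arrays of cortex, against 6.86 and 8.10 on its control arrays, where 8.10 belongs to replicate 2. Genes of meninges and matrix averaged 6.72 and 7.13 on the curcumin arrays of cortex and 7.44 and 6.59 on its control arrays. Both marker lists thus differed more between the 2 arrays of control-fed cortex than between the diets, and their part in the tissue differences was not tested.

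The effect of curcumin differed between the tissues in 52 of 27342 clusters (0.19%) after 12 weeks, with 32 positive (0.117%) and 20 negative (0.0731%) differences. At an unadjusted p under 0.05 there were 2891 clusters. Of the 52 clusters, 32 carry exactly 1 gene symbol and stand for 28 genes, 13 with a positive and 15 with a negative tissue difference. The positive ones include Wbp2, Adam11, Meg3, Nlgn2 and Vamp2, and the negative ones Cd3e, Cox11, Amd1, Slc15a2 and Cldn12. In 48 of the 52 clusters the effect in cortex alone was called as well, in 1 (Cd3e) the effect in hippocampus, and in 3 neither (both clusters of Npy2r and 1 cluster without a symbol). Over all clusters the cortex effect was called in 449 upward (1.64%) and 436 downward (1.59%), and the hippocampus effect in 1 upward (0.00366%) and 0 downward, with limma.

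In most of these clusters 1 group stood apart. Both curcumin arrays of cortex lay above all 6 other arrays of 12 weeks in 27 of the 52 clusters and below all 6 in 18. The 2 outcomes together made 86.5% of the called clusters and 19.5% of all clusters. Both curcumin arrays of hippocampus lay apart from the other 6 in 13 of the 52 clusters, against 5.82% of all clusters. For the control arrays this was so in 9 clusters in cortex, against 7.38% of all, and in 3 in hippocampus, against 8.3% of all. An array pair is the difference between 1 curcumin and 1 control array of a tissue. The 4 array pairs of cortex lay apart from the 4 of hippocampus in all 52 called clusters. Among all clusters they lay above in 11.6% and below in 9.51%. The gap between the tissues, cortex minus hippocampus, was wider with curcumin than on control chow in 46 of the 52 clusters, with median absolute gaps of 0.63 with curcumin and 0.13 on control chow. These shares describe the called clusters, which the same contrast had picked. No cluster was called in both tissues.

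**Figure D1:**
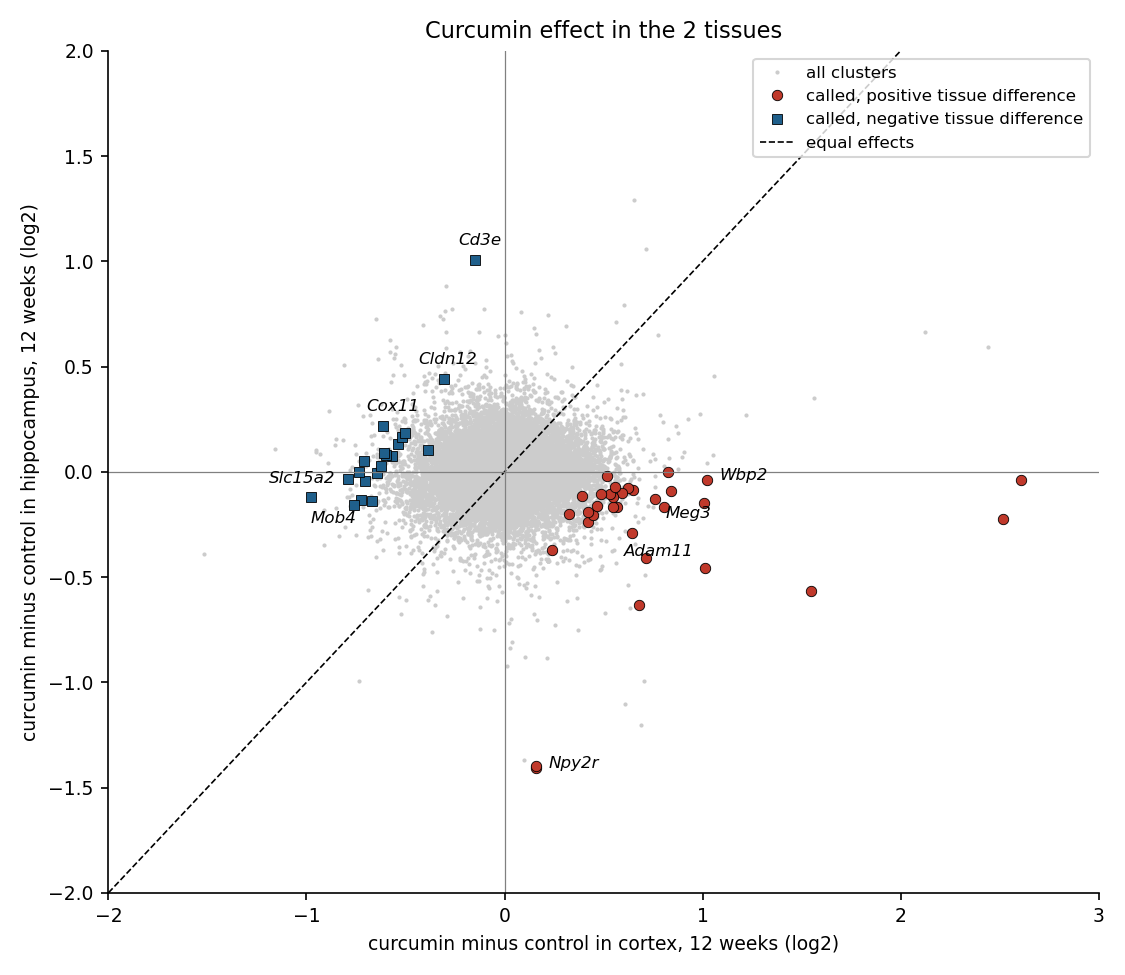
Effect of 12 weeks of curcumin in cortex (horizontal axis, log2) against the effect in hippocampus (vertical axis, log2), each as the difference of 2 curcumin and 2 control arrays; grey points are all 27342 clusters, red circles the 32 called positive and blue squares the 20 called negative tissue differences, and the dashed line marks equal effects. Most called clusters lie along the horizontal axis, and Npy2r and Cd3e lie along the vertical axis.

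Wbp2, which encodes a WW domain binding protein that acts as a transcriptional coactivator, had the lowest adjusted p of the named genes. It was at 9.45 and 9.43 on the curcumin arrays of cortex and at 8.41 and 8.42 on its control arrays, and in hippocampus at 8.70 and 8.62 with curcumin against 8.65 and 8.74 on control chow. The 2 curcumin arrays of cortex were the highest of all 8 and the 2 control arrays of cortex the lowest, while the hippocampal diets overlapped. The level rose 2.03-fold in cortex and stood at 0.972-fold in hippocampus, which gives a tissue difference of 1.06 (SE 0.089, limma adjusted p = 0.00151). Meg3, a long noncoding RNA transcribed from the maternal copy of an imprinted locus, was among the brightest of the called genes. Its values were 11.59 and 11.60 on the curcumin arrays of cortex against 10.80 and 10.86 on its control arrays, and 10.72 and 10.81 against 10.88 and 10.91 in hippocampus. Cortical values rose by 0.76 and the hippocampal difference was -0.13, a tissue difference of 0.89 (SE 0.084, adjusted p = 0.00328). Scaf1, whose product binds the tail of RNA polymerase II, had a tissue difference of 0.65 (SE 0.11, adjusted p = 0.0452), with 8.57 and 8.58 against 8.21 and 8.05 in cortex and 8.04 and 8.07 against 8.24 and 8.27 in hippocampus.

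Vamp2, the SNARE protein of synaptic vesicles, was at 9.68 and 9.75 with curcumin and at 9.15 and 9.17 on control chow in cortex, and at 9.09 and 9.08 with curcumin and at 9.19 and 9.13 on control chow in hippocampus. The 6 arrays other than those of curcumin-fed cortex lay within a narrow band, with those of curcumin-fed hippocampus the lowest, and the tissue difference was 0.63 (SE 0.087, limma adjusted p = 0.0247). Nlgn2, the neuroligin of inhibitory synapses, was at 8.37 and 8.41 against 7.70 and 7.79 in cortex and at 7.71 and 7.82 against 7.93 and 7.77 in hippocampus, each time with curcumin against control chow. Its tissue difference was 0.73 (SE 0.12, adjusted p = 0.0472), and the curcumin arrays of cortex were the only ones that stood apart. Grik5, a kainate receptor subunit, had cortical values of 8.75 and 8.65 with curcumin against 8.16 and 8.26, hippocampal values of 8.25 and 8.29 against 8.34 and 8.41, and a tissue difference of 0.59 (SE 0.09, adjusted p = 0.0406). Flrt1, a leucine-rich repeat adhesion protein of neurons, reached 7.83 and 7.87 with curcumin in cortex against 7.30 and 7.30, and 6.84 and 7.06 against 7.18 and 7.04 in hippocampus (tissue difference 0.71, adjusted p = 0.0406). Agrn, the proteoglycan agrin that gathers receptors at the neuromuscular junction, was at 8.60 and 8.60 against 7.98 and 7.97 in cortex and at 7.78 and 7.80 against 7.82 and 7.91 in hippocampus (tissue difference 0.70, adjusted p = 0.0297). In each of these 5 genes both curcumin arrays of cortex lay above the 6 other arrays.

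Adam11 differed from these in its layout. This gene encodes a member of the ADAM family that lacks protease activity and sits at the neuronal surface. It was at 8.86 and 8.82 with curcumin and at 8.14 and 8.26 on control chow in cortex, and at 8.58 and 8.46 with curcumin and at 8.77 and 8.85 on control chow in hippocampus. The control arrays of cortex were the lowest, and the curcumin arrays of cortex reached the level of the control arrays of hippocampus. The effects were thus 0.64 in cortex, which was called, and -0.29 in hippocampus, which was not (limma adjusted p = 0.678). On control chow the level in cortex was below that in hippocampus (gap -0.61), and with curcumin above it (0.32). The tissue difference of 0.93 (SE 0.10, adjusted p = 0.00705) was the third largest on the positive side among the genes that were called. The other positive genes were Uqcrfs1, the Rieske subunit of respiratory complex III (0.67, adjusted p = 0.0494), Ssh3, a cofilin phosphatase (0.61, adjusted p = 0.0426), and Hexd, a hexosaminidase (0.51, adjusted p = 0.0426). Their cortical effects were 0.55, 0.42 and 0.39, and their hippocampal differences were -0.12, -0.19 and -0.12, in the order named.

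**Figure D2:**
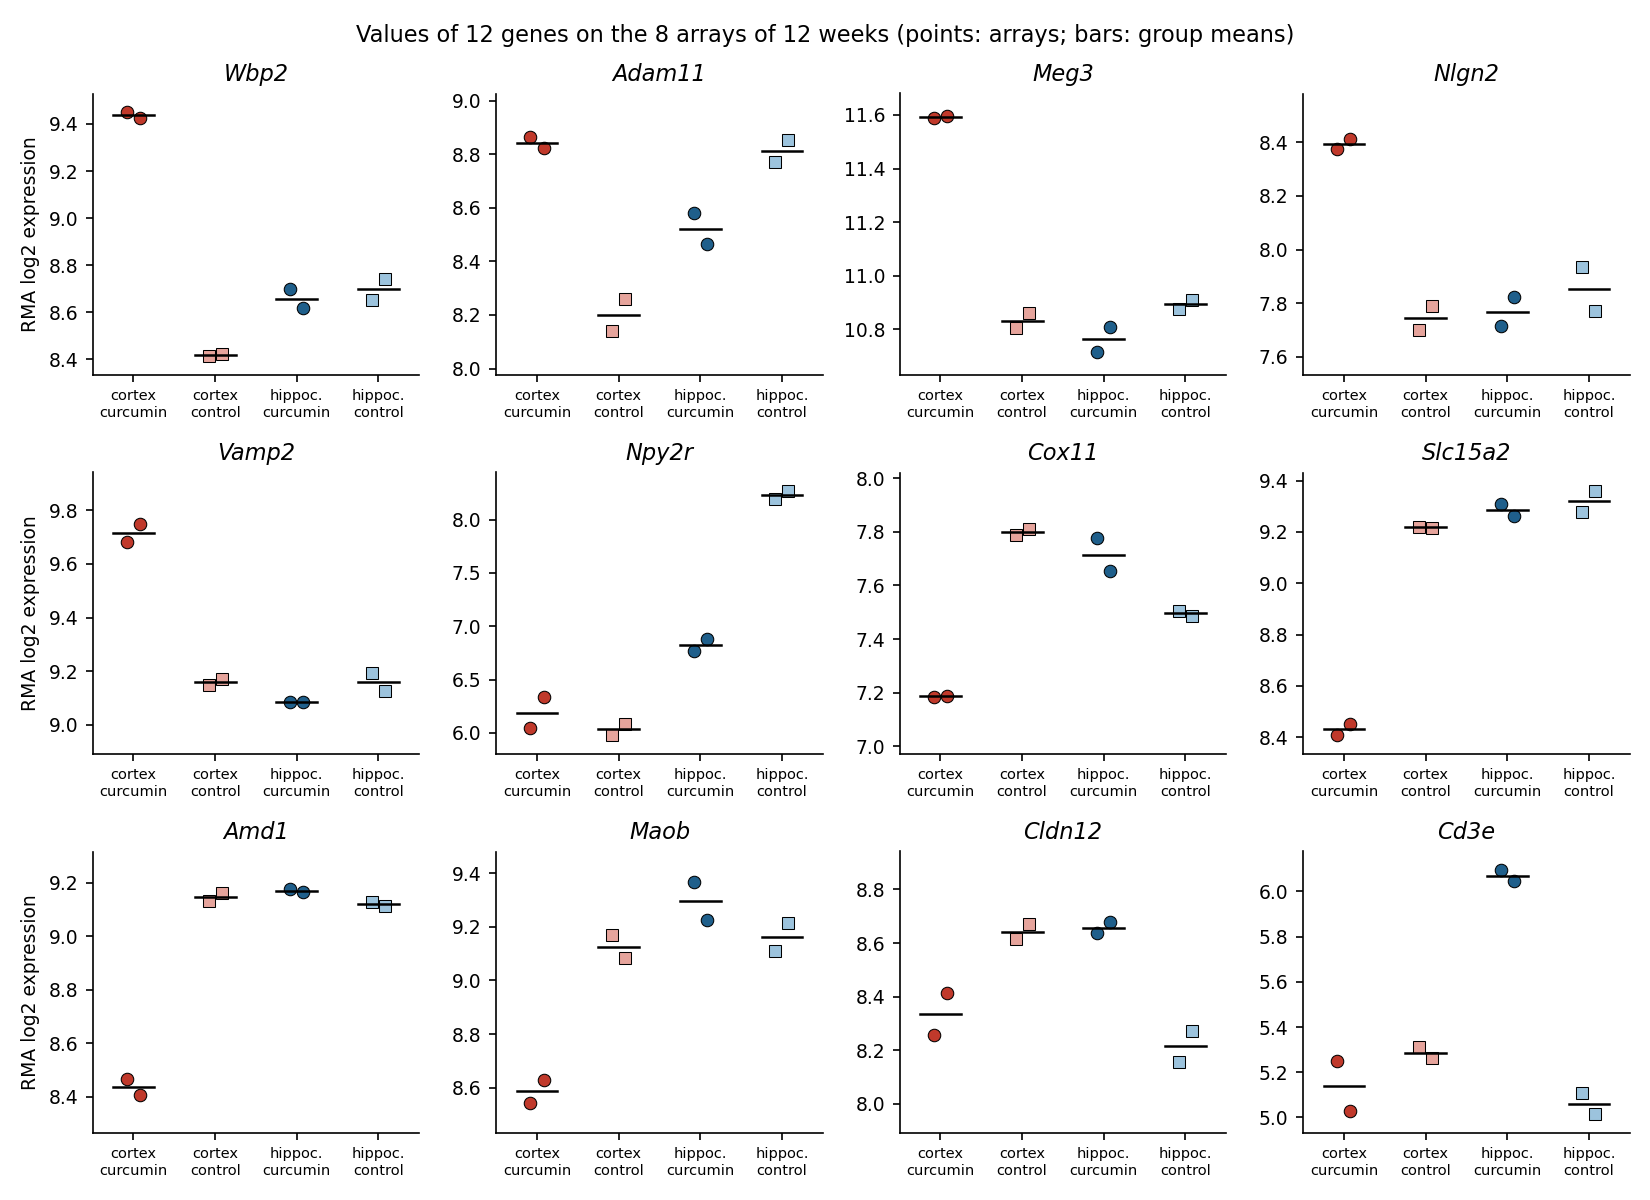
RMA log2 expression (vertical axes) of 12 called genes on the 8 arrays of 12 weeks, by tissue and diet; each point is 1 array and each bar the mean of 2 arrays. In 8 of the 12 panels both curcumin arrays of cortex lie above or below all 6 others, while Npy2r differs in control hippocampus and Cd3e in curcumin hippocampus.

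Npy2r, the presynaptic Y2 receptor of neuropeptide Y, had the largest tissue difference of the called genes, and here the larger effect was in hippocampus. The receptor gene was at 6.77 and 6.88 with curcumin and at 8.20 and 8.27 on control chow in hippocampus, and in cortex at 6.04 and 6.34 with curcumin against 5.98 and 6.09. Every hippocampal array lay above every cortical array, and the hippocampal control arrays lay highest. The level in hippocampus with curcumin was 0.377-fold that of controls, a difference that limma did not call by itself (-1.41, SE 0.18, adjusted p = 0.0638). The tissue difference was 1.56 (SE 0.25, adjusted p = 0.0427), and another cluster of the same gene, with nearly the same values, gave 1.56 (adjusted p = 0.0426). The call was made in 0 of 8 fits that left out 1 array (adjusted p = 0.0742 to 0.168).

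Npy2r belongs to a list of 11 measured genes that mark the ventral hippocampus, and 10 of these had positive tissue differences. The median over the list was 0.45, against 0.00 over all clusters, and the median effects were 0.27 in cortex and -0.24 in hippocampus. Itgbl1, an integrin-related secreted protein, was at 7.14 and 7.38 with curcumin and at 8.57 and 8.69 on control chow in hippocampus, and in cortex at 6.82 and 7.21 with curcumin against 7.31 and 6.52 (tissue difference 1.47, adjusted p = 0.161). Nnat, the imprinted proteolipid neuronatin, was at 8.72 and 9.73 with curcumin against 8.42 and 8.62 in cortex and at 8.23 and 9.12 against 9.77 and 9.57 in hippocampus (1.70, adjusted p = 0.24), and the transcription factor gene Nr2f2 had 0.93 (adjusted p = 0.298). None of these 3 passed. The mean level over the whole list was 7.01 and 7.41 on the curcumin arrays of hippocampus against 7.81 and 7.65 on its control arrays, and 6.93 and 7.52 against 7.12 and 7.01 in cortex. This mean, which includes Npy2r itself, was lower on the curcumin arrays of hippocampus. The part of the other markers in the tissue difference of Npy2r was not tested. Cpne7, a protein that binds membranes in the presence of calcium, showed the same layout with 7.93 and 8.16 against 9.39 and 9.10 in hippocampus and 7.5 and 7.75 against 7.02 and 6.86 in cortex. Its tissue difference of 1.89 was the largest among clusters with 1 symbol but had a wider error (SE 0.36, adjusted p = 0.0681).

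Cox11, Maob, Slc25a44 and Rfk were among the genes with negative differences, and each was lower with curcumin in cortex. Cox11, a copper chaperone needed to assemble cytochrome c oxidase, was at 7.18 and 7.19 with curcumin and at 7.79 and 7.81 on control chow in cortex, and at 7.78 and 7.65 with curcumin and at 7.51 and 7.49 on control chow in hippocampus. The curcumin arrays were the lowest in cortex and lay above the controls in hippocampus. The effect in cortex was -0.61 (called) and that in hippocampus 0.22 (adjusted p = 0.738), a tissue difference of -0.83 (SE 0.086, limma adjusted p = 0.00652). Maob, the monoamine oxidase of astrocytes and serotonergic neurons, was at 8.54 and 8.63 with curcumin against 9.17 and 9.08 in cortex and at 9.37 and 9.23 against 9.11 and 9.22 in hippocampus (tissue difference -0.67, adjusted p = 0.0406). In cortex its 2 diets did not overlap. Slc25a44, a mitochondrial carrier of branched-chain amino acids, was at 7.57 and 7.54 against 8.22 and 8.29 in cortex and at 8.26 and 8.19 against 8.21 and 8.33 in hippocampus (-0.66, adjusted p = 0.0472). Rfk, the kinase that turns riboflavin into flavin mononucleotide, was at 8.35 and 8.40 against 9.17 and 9.09 in cortex and at 9.05 and 8.91 against 9.15 and 9.14 in hippocampus. It was lower with curcumin in both tissues, by more in cortex, and its 2 clusters gave tissue differences of -0.60 and -0.53 (adjusted p = 0.0367 and 0.0459).

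Slc15a2, the peptide transporter PEPT2 of astrocytes and choroid plexus, was at 8.41 and 8.45 with curcumin and at 9.22 and 9.22 on control chow in cortex, and in hippocampus at 9.31 and 9.26 with curcumin against 9.28 and 9.36. The 6 arrays other than those of curcumin-fed cortex lay between 9.22 and 9.36. The level in cortex fell to 0.579-fold that of controls, and the tissue difference was -0.75 (SE 0.083, limma adjusted p = 0.00705). Amd1, which makes the aminopropyl donor for spermidine and spermine, was at 8.47 and 8.41 against 9.13 and 9.16 in cortex and at 9.18 and 9.16 against 9.13 and 9.11 in hippocampus (-0.76, adjusted p = 0.0391). Oaz1, the antizyme that sends ornithine decarboxylase to the proteasome, was at 9.73 and 9.81 against 10.31 and 10.37 in cortex and at 10.44 and 10.32 against 10.29 and 10.32 in hippocampus (-0.64, adjusted p = 0.0426), while a dimmer cluster of Oaz1 was not called (-0.84, adjusted p = 0.081). Amd1 and the called cluster of Oaz1 thus had 6 arrays close together and lower values only on the curcumin arrays of cortex. In the list of polyamine and serine synthesis, these 2 genes were the 2 of 15 measured genes that were called. Over all clusters, 0.0731% were called with a negative difference. Of the 15 differences 10 were negative, with a median of -0.07. Psat1, an enzyme of serine synthesis, was at -1.01 (adjusted p = 0.149), the antizyme inhibitor gene Azin1 at -0.53 (adjusted p = 0.122), and Odc1, ornithine decarboxylase itself, at -0.092 (adjusted p = 0.936).

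Ddx6, an RNA helicase of processing bodies, is measured by 3 clusters, and all of them were called, with tissue differences of -0.64, -0.65 and -0.73. Its brightest cluster was at 9.64 and 9.47 with curcumin against 10.19 and 10.20 in cortex and at 10.28 and 10.10 against 10.17 and 10.22 in hippocampus (adjusted p = 0.0426). The hippocampal diets overlapped, and the fitted effect there was -0.008. Spop, the adaptor that brings substrates to a cullin ubiquitin ligase, was at 8.88 and 8.95 against 9.52 and 9.50 in cortex and at 9.55 and 9.55 against 9.42 and 9.52 in hippocampus (-0.68, adjusted p = 0.0247). Mob4, a subunit of the striatin phosphatase complex, had effects of -0.73 in cortex and -0.13 in hippocampus (tissue difference -0.59, adjusted p = 0.0247). For Rbm18, an RNA-binding protein, the effects were -0.50 in cortex and 0.18 in hippocampus (tissue difference -0.69, adjusted p = 0.0471). Slc25a51, the mitochondrial carrier of NAD, and Gnb1, a G protein beta subunit, lie outside the rule for named genes and were chosen after their values were seen. A cluster of Slc25a51 was called (-0.70, adjusted p = 0.0414), while 2 others were not (adjusted p = 0.0508 and 0.125), and a cluster of Gnb1 was called (-0.49, adjusted p = 0.0414), while its brightest was not (adjusted p = 0.0681).

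Cldn12 and Cd3e were the called genes with negative differences whose hippocampal effect was larger in size than the cortical one. Cldn12, a claudin of tight junctions, was at 8.26 and 8.41 with curcumin and at 8.61 and 8.67 on control chow in cortex, and at 8.64 and 8.68 with curcumin and at 8.16 and 8.27 on control chow in hippocampus. It was lower with curcumin in cortex (-0.31) and higher in hippocampus (0.44, not called by itself, adjusted p = 0.228), without overlap of the diets in either tissue, and the tissue difference was -0.75 (SE 0.10, limma adjusted p = 0.0247). Cd3e, which codes for the CD3 epsilon chain of T cells, was at 6.09 and 6.05 with curcumin and at 5.11 and 5.02 on control chow in hippocampus, and in cortex at 5.25 and 5.03 with curcumin against 5.31 and 5.26. Only the curcumin arrays of hippocampus stood apart, by 1.01 (adjusted p = 0.00607), and the tissue difference was -1.16 (SE 0.13, adjusted p = 0.00705). The cluster is dim, with a mean of 5.34 over all arrays on a scale that starts at 4.33. No other of the 12 measured T cell genes was called. The partner chains Cd3d and Cd3g had tissue differences of 0.0063 and 0.10, and the kinase gene Lck had -0.34 (adjusted p = 0.203). The mean level over the list was 6.03 and 6.12 on the curcumin arrays of hippocampus against 6.00 and 5.93 on its control arrays. This mean includes Cd3e itself, so it is no separate result on T cells.

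**Figure D3:**
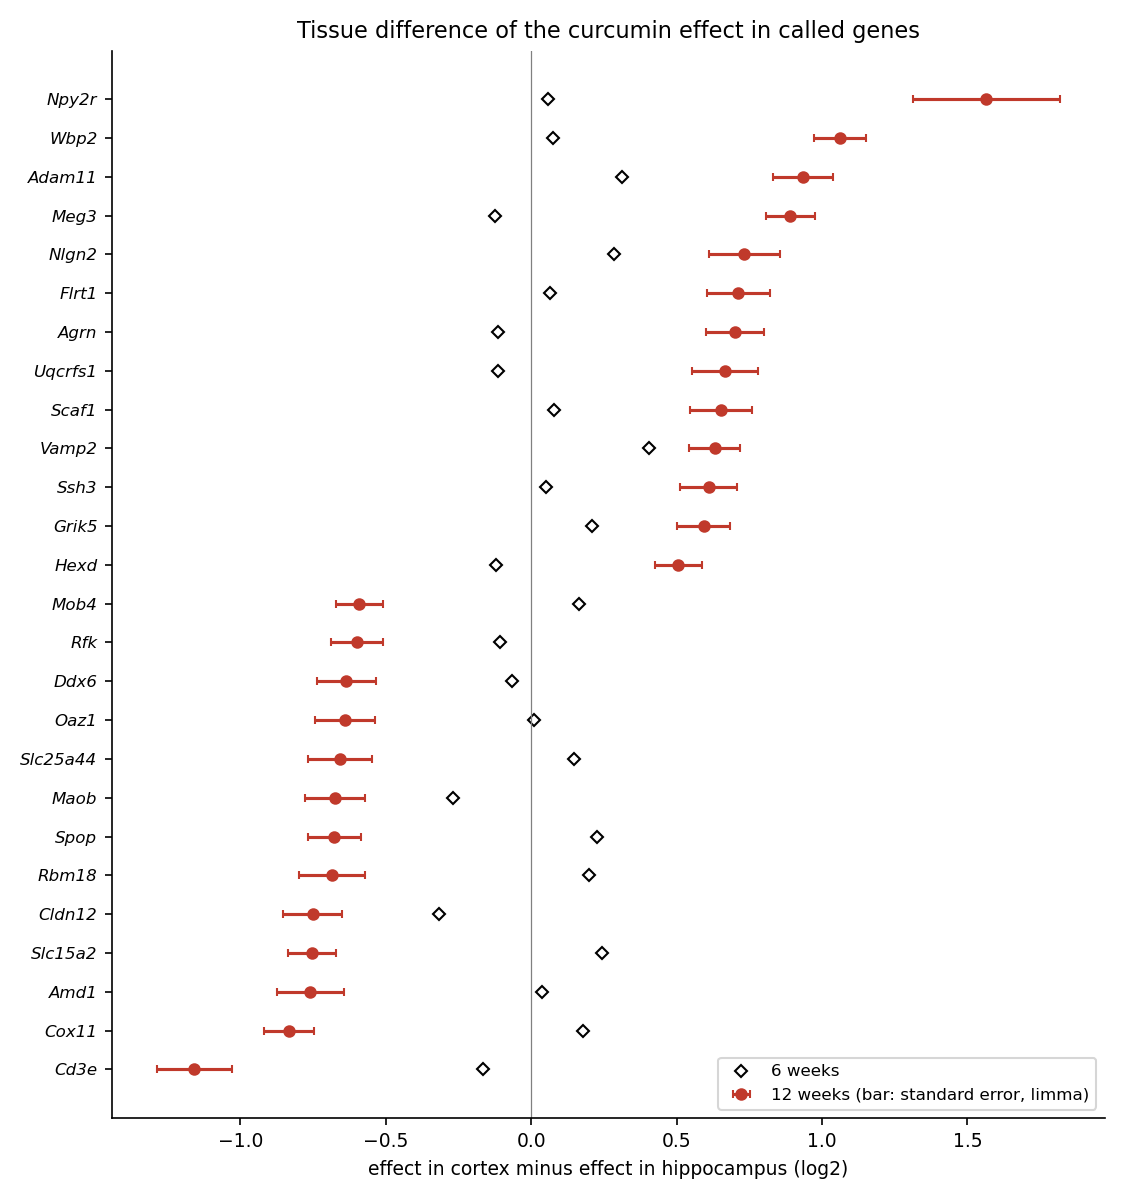
Tissue difference of the curcumin effect (cortex minus hippocampus, log2, horizontal axis) in the 26 called genes whose brightest cluster was called; filled circles give 12 weeks with the limma standard error as a bar, and open diamonds give 6 weeks. After 12 weeks the values run from -1.16 for Cd3e to 1.56 for Npy2r, and the 6-week values of these genes lie between -0.32 and 0.40.

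Among lists of synaptic genes, called members were few. Of 23 measured genes of vesicle release, 1 was called (Vamp2) against 0.117% of all clusters, 21 had positive tissue differences, and the median was 0.23, from effects of 0.18 in cortex and -0.10 in hippocampus. Cplx1, a complexin that clamps release, had 0.46 (adjusted p = 0.335), Rims1, a scaffold of the release site, 0.42 (adjusted p = 0.193), and Syn1, which tethers vesicles, 0.31 (adjusted p = 0.261). Without replicate 1 of curcumin-fed cortex the median of the list was 0.12, and at 6 weeks it was 0.40. Of 18 measured postsynaptic scaffolds and neuroligins, 1 was called (Nlgn2), against 0.117% of all clusters. Positive differences were found in 14 of the 18, against 13668 of all 27342 clusters, with a median of 0.18, and of 0.24 at 6 weeks. Nlgn2 was called in 3 of 10 other settings of the fit, and with neither quantile normalization. The scaffold genes Shank1, Shank2 and Shank3 had 0.55, 0.56 and 0.55 (adjusted p = 0.11, 0.0694 and 0.401), and Srcin1, which inhibits the kinase Src, had 0.68 (adjusted p = 0.0681). Srcin1 was at 8.66 and 8.63 with curcumin against 7.999 and 7.98 in cortex and at 7.90 and 7.97 against 7.90 and 8.01 in hippocampus, so that again the curcumin arrays of cortex stood alone. Of 15 measured ionotropic glutamate receptor genes, 1 was called (Grik5), again against 0.117% of all clusters. In this list 9 differences were positive and the median was 0.22, and 0.06 at 6 weeks. Grin1, the obligatory NMDA receptor subunit, was at 0.43 (adjusted p = 0.135) and the AMPA receptor gene Gria3 at -0.40 (adjusted p = 0.373).

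Receptors of inhibition and metabotropic receptors had medians below 0 at 12 weeks and above 0 at 6 weeks. The 10 measured GABA-A receptor genes had a median of -0.23 (0.19 at 6 weeks) with 0 calls. Gabrb2, a beta subunit, was at 9.83 and 9.72 with curcumin against 10.04 and 10.07 in cortex and at 9.94 and 9.83 against 9.65 and 9.64 in hippocampus, a tissue difference of -0.52 that did not pass (limma adjusted p = 0.0694). The median was -0.34 over 6 metabotropic glutamate receptor genes (0.08 at 6 weeks), and 0 were called. Immediate early genes, which follow neuronal activity within minutes to hours, had negative differences in 12 of 15 measured genes. Their median was -0.29 (0.20 at 6 weeks), with median effects of -0.20 in cortex and 0.24 in hippocampus at 12 weeks. Npas4, the activity-dependent transcription factor, was at 8.31 and 7.62 with curcumin against 8.38 and 8.19 in cortex and at 7.56 and 6.78 against 6.49 and 6.39 in hippocampus (-1.04, adjusted p = 0.359). The 2 curcumin arrays lay well apart in both tissues.

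**Figure D4:**
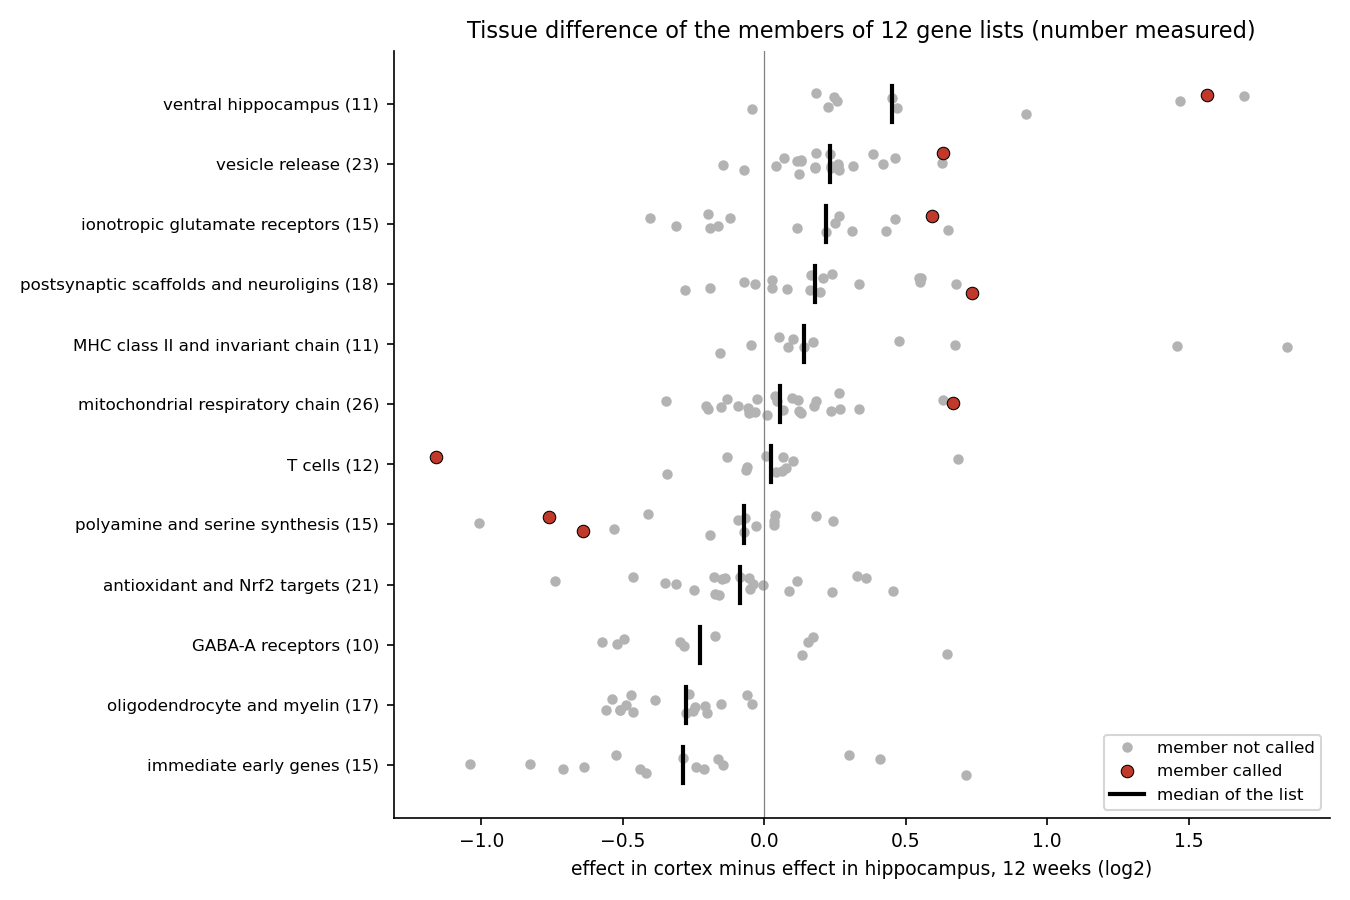
Tissue difference at 12 weeks (log2, horizontal axis) of the measured members of 12 gene lists, with the number of members in brackets; grey points are members that were not called, red points members that were called, and black bars the list medians. Medians run from 0.45 for genes of the ventral hippocampus to -0.29 for immediate early genes.

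Among glial and vascular lists, those of oligodendrocytes, astrocytes and endothelium had medians below 0. Those of microglia and pericytes had medians above 0, and each list had 0 calls. All 17 measured oligodendrocyte and myelin genes had negative tissue differences (median -0.28), and the median was further below 0 at 6 weeks (-0.68). Their mean level in cortex was 7.97 and 8.34 with curcumin against 8.18 and 8.56 on control chow. In hippocampus it was 8.67 and 8.80 against 8.31 and 8.92. The diets overlapped in both tissues. Astrocyte genes had a median of -0.21 over 10 measured genes, with 8 negative, and endothelial genes -0.29 over 13, with 11 negative. At 6 weeks these 2 medians were -0.11 and -0.10. Cav1, the caveolar coat protein of endothelium, was at 6.77 and 7.27 with curcumin against 7.92 and 7.71 in cortex and at 7.67 and 7.59 against 7.59 and 7.91 in hippocampus (-0.68, adjusted p = 0.222). The astrocyte gene Mlc1, a membrane protein of endfeet, had -0.53 (adjusted p = 0.081). Mean levels over the astrocyte list were 9.57 and 9.83 with curcumin against 9.90 and 9.93 in cortex, and 10.05 and 10.09 against 10.00 and 10.13 in hippocampus. These levels were lower on the curcumin arrays of cortex together with Maob and Slc15a2, which astrocytes express, and their part in those 2 results was not tested. Microglia genes had a median of 0.13 over 15, against -0.34 at 6 weeks. Genes of pericytes and smooth muscle had 0.06 over 10, with 6 positive, against -0.13 at 6 weeks. Genes of the mitochondrial respiratory chain had 0.05 over 26, with Uqcrfs1 as the 1 called member, against 0.117% of all clusters. Antioxidant genes and Nrf2 targets had -0.09 over 21 with 0 calls.

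Genes of antigen presentation had large differences with large errors. Cd74, the invariant chain of MHC class II, was at 9.13 and 10.67 with curcumin and at 7.34 and 7.57 on control chow in cortex, and at 8.38 and 7.68 with curcumin and at 6.92 and 7.95 on control chow in hippocampus. The curcumin arrays of cortex were the highest but lay more than 1 log2 unit apart, and the tissue difference of 1.85 did not pass (SE 0.64, limma adjusted p = 0.291). It was 1.08 without replicate 2 of curcumin-fed cortex. RT1-Da, a class II alpha chain, had 1.46 (SE 0.67, adjusted p = 0.48), RT1-Ba 0.68 and RT1-Db1 0.48 (adjusted p = 0.0941). RT1 genes share sequence with close relatives, so values of single RT1 genes are uncertain. The median over 11 measured genes of the list was 0.14, with 9 positive.

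Genes that the study set out as examples for 12 weeks were chosen on these arrays and are described without weight as support. Of 20, 19 have a named cluster, and 1 was called (Nlgn2), against 0.19% of all clusters. The median tissue difference was 0.55. Kit, a receptor tyrosine kinase, was at 7.13 and 7.80 with curcumin against 6.89 and 6.78 in cortex and at 8.05 and 8.31 against 8.89 and 8.77 in hippocampus. It was higher with curcumin in cortex and lower in hippocampus (tissue difference 1.28, SE 0.25, limma adjusted p = 0.0686). Htr2a, the serotonin 2A receptor, was at 6.93 and 7.16 against 8.60 and 8.52 in cortex and at 7.10 and 6.97 against 7.57 and 7.28 in hippocampus, lower with curcumin in both and by more in cortex (-1.13, adjusted p = 0.126). Htr2c, the serotonin 2C receptor, had effects of -0.74 in cortex and -0.99 in hippocampus, and a tissue difference of 0.26 with a wide error (SE 0.76, adjusted p = 0.963). Wnt2, a secreted Wnt ligand, was at 6.89 and 7.15 with curcumin against 7.24 and 6.99 in cortex and at 7.82 and 7.73 against 6.65 and 7.35 in hippocampus (-0.87, adjusted p = 0.214). The lipase gene Lpl had 0.85 (adjusted p = 0.411), and Adcy1, a calmodulin-stimulated adenylyl cyclase, had effects of 0.60 in cortex, which was called, and 0.79 in hippocampus, which was not (tissue difference -0.19, adjusted p = 0.834).

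At 6 weeks the tissue difference was called in 0 of 27342 clusters with limma, with 1498 at an unadjusted p under 0.05. Of the 52 clusters called at 12 weeks, 29 had a 6-week difference of the same sign and 23 of the other sign. The median 6-week difference was 0.059 for the 32 positive clusters and 0.039 for the 20 negative ones, against 0.73 and -0.68 at 12 weeks. These clusters were picked by their 12-week difference, which by itself makes larger values at 12 weeks likely, so the medians do not compare the durations. The change of the tissue difference between the durations was itself called in 5 clusters, 3 upward (0.011%) and 2 downward (0.00731%). All 5 were among the 52, but the change contains the 12-week difference, so this overlap is no separate result. The 4 named ones are Meg3, Wbp2, Slc15a2 and Cox11. For Vamp2, Adam11 and Nlgn2 the 6-week differences were 0.40, 0.31 and 0.28, and the change was not called.

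Meg3 was at 11.06 and 11.13 with curcumin against 11.26 and 11.16 in cortex at 6 weeks, and at 11.24 and 11.20 against 11.22 and 11.20 in hippocampus. All 8 arrays lay between 11.06 and 11.26, and the change of the tissue difference up to 12 weeks was 1.01 (SE 0.12, limma adjusted p = 0.0297). Wbp2 at 6 weeks was at 8.71 and 8.82 with curcumin against 8.69 and 8.59 in cortex and at 8.85 and 8.77 against 8.75 and 8.77 in hippocampus, and the change was 0.98 (SE 0.13, adjusted p = 0.0408). Slc15a2 at 6 weeks was higher with curcumin in cortex, at 8.87 and 9.005 against 8.65 and 8.69, and at 9.05 and 9.06 against 9.04 and 9.01 in hippocampus. The sign of its cortical effect was thus opposite at the 2 durations (0.27 and -0.79), and the change of the tissue difference was -0.997 (SE 0.12, adjusted p = 0.0297). Cox11 at 6 weeks was at 7.47 and 7.48 with curcumin against 7.30 and 7.31 in cortex and at 7.41 and 7.43 against 7.37 and 7.51 in hippocampus. Its cortical effect was 0.17 at 6 weeks and -0.61 at 12 weeks, a change of the tissue difference of -1.01 (SE 0.12, adjusted p = 0.0297). Cortical controls of the 4 genes also differed between the durations, by more than the gap between the 2 arrays of a group. Whether rats of the 2 durations were handled or hybridized together is not given in the sources used here, so that a batch and the duration cannot be told apart.

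**Figure D5:**
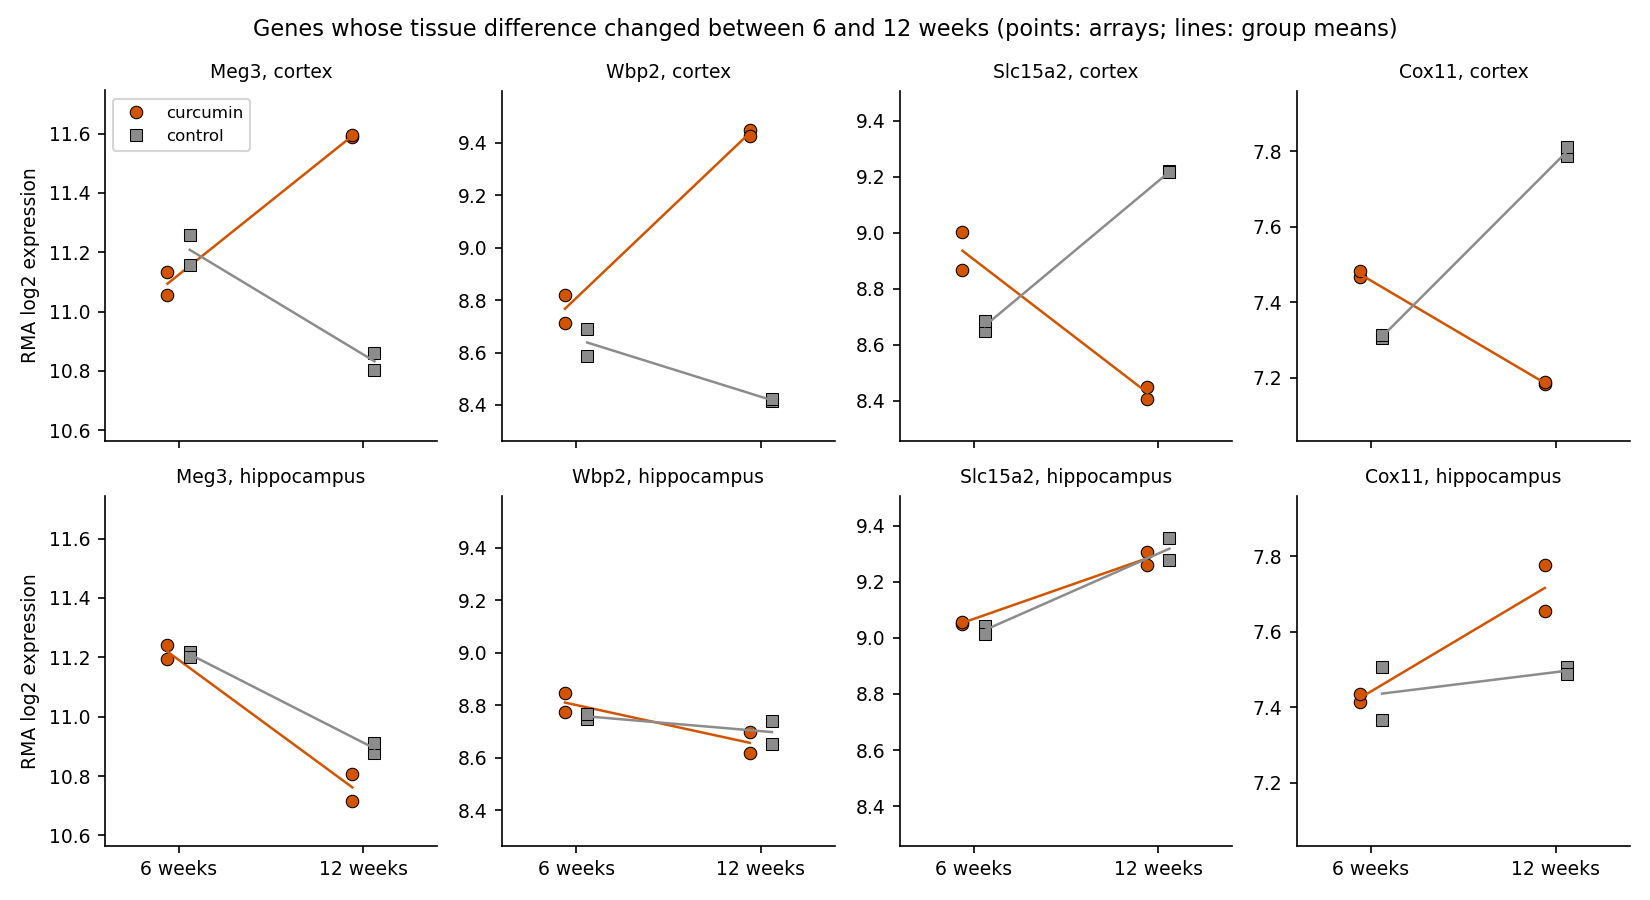
RMA log2 expression (vertical axes) of Meg3, Wbp2, Slc15a2 and Cox11 at 6 and 12 weeks in cortex (upper row) and hippocampus (lower row), with curcumin (orange circles) and on control chow (grey squares); each point is 1 array and lines join group means. In cortex the diets lie further apart at 12 weeks than at 6 weeks, and their order turns for Meg3, Slc15a2 and Cox11. In hippocampus the lines of the diets stay close except for Cox11.

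The promoters of these 4 genes are shown because they were the named genes whose tissue difference changed with duration. Each window runs from 250 bases before to 50 bases after the gene's start, 5′ to 3′ on the strand of the gene, as RefSeq gives it on GRCr8. Capitals mark matches, on either strand, to any of 6 short motifs. The TATA box was searched as TATAAA, and the share of all 33469 RefSeq promoters of this length that hold it is 14.2%. The sequence GGGCGG, known as the GC box, is held by 33.1% of them. For CCAAT, the box of the same name, the share is 37.5%. An E box spelled CACGTG is found in 6.42% of the promoters. The cyclic AMP response element, TGACGTCA, is found in 1.83%, and the core of the antioxidant response element, TGACNNNGC, in 12.1%.
Meg3, chr6:134273806-134274105, plus strand: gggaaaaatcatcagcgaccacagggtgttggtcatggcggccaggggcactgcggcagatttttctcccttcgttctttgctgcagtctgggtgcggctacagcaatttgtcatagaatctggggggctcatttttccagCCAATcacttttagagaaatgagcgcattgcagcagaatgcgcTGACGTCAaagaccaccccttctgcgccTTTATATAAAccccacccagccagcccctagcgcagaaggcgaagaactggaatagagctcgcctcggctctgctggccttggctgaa
Wbp2, chr10:101819522-101819821, minus strand: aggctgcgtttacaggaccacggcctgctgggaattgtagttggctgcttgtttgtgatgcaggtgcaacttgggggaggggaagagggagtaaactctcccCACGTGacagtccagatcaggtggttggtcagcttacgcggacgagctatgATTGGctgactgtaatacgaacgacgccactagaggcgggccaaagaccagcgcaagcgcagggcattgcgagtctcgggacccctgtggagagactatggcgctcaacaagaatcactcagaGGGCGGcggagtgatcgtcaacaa
Slc15a2, chr11:77519315-77519614, plus strand: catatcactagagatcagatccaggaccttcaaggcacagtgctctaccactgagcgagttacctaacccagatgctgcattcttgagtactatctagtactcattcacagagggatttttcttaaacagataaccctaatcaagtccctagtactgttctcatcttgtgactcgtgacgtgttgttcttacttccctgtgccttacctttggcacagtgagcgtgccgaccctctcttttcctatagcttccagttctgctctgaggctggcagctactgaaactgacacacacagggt
Cox11, chr10:75955575-75955874, plus strand: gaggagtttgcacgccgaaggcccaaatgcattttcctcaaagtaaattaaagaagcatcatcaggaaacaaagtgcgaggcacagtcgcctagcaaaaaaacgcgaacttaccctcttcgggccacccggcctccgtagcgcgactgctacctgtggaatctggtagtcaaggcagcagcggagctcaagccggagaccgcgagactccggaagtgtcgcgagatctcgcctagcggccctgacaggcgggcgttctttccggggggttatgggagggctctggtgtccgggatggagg
The windows of Meg3 and Wbp2 hold matches and those of Slc15a2 and Cox11 hold none. In Meg3 these are a CCAAT box, a cyclic AMP response element and a TATA box, the last in both orientations with 2 shared bases. The window of Wbp2 holds an E box, a CCAAT box on the opposite strand and a GC box. Of the 28 called genes, 26 have an entry, of which 15 hold a GC box, 7 a CCAAT box, 4 a TATA box, 3 an E box, 2 a cyclic AMP response element (Meg3 and Rbm18) and 2 the antioxidant core (Rfk and Oaz1). The shares above are over all RefSeq promoters, whose median GC content was 51.7%. They were not computed for the genes of the array, so these counts cannot be set against them. GC content was 54.3% for Meg3, 57% for Wbp2, 47% for Slc15a2 and 58.3% for Cox11, against a median of 60% over the 26 called genes and 58% over the genes of the array that have an entry. A match describes the letters only.

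Among the 52 clusters, 20 do not carry exactly 1 symbol, 18 of them on the positive side, and these included the largest values. Cluster 10803049 was at 7.67 and 7.46 with curcumin against 4.98 and 4.94 in cortex and at 4.90 and 5.04 against 5.04 and 4.98 in hippocampus. It lay near the lower end of the scale on 6 arrays and rose 6.08-fold in curcumin-fed cortex, and its tissue difference of 2.64 had the lowest adjusted p of all clusters (SE 0.13, limma adjusted p = 7.05e-06). Cluster 10813885 was at 8.96 and 8.71 against 6.34 and 6.29 in cortex and at 6.10 and 6.35 against 6.12 and 6.78 in hippocampus (2.74, SE 0.42, adjusted p = 0.0406). Cluster 10803049 was also called in the change between durations (2.77, adjusted p = 0.000177), and 6-week arrays gave it values of 4.89 and 4.85 with curcumin against 4.83 and 4.90 in cortex.

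The calls depended on single arrays, and 39 of the 52 clusters were called in 0 or 1 of the 8 fits that left out 1 array of 12 weeks. The sign was the same for all 52 in each of these fits. It could not have turned, since the array pairs of the 2 tissues lay apart in all 52. Wbp2, Meg3, Cox11 and cluster 10803049 were called in all 8. Slc15a2 lost its call without replicate 1 of curcumin-fed hippocampus (adjusted p = 0.0514), Adam11 without replicate 2 of control hippocampus (0.0513) and Cd3e without either of them (up to 0.0514). Without replicate 2 of control cortex, the array with high striatal genes, 13 clusters were called, 11 of them among the 52. A fit to the 8 arrays of 12 weeks alone, with 4 residual degrees of freedom in place of 8, called only cluster 10803049, so that Wbp2, Meg3 and Cox11 lost their calls there.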

How the data were processed

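RNA of pooled cortex or hippocampus was hybridized to 16 Affymetrix arrays. The authors deposited log2 values, which they made with Affymetrix Expression Console and RMA (versions not given in the sources used here), with array medians from 6.35 to 6.44. The paper names an exon array and the cluster annotation a gene array, which was not settled here. No probe-level data were used. Groups came from the sample labels.

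Of 27342 clusters, 15097 carry 1 gene symbol, 323 several and 11922 none, and 15067 matched the RefSeq table of GRCr8 by gene ID. The deposited log2 values were fitted with limma 3.58.1 in R 4.3.3 (statmod 1.5.0), as group means over 16 arrays in 8 groups, which left 8 residual degrees of freedom and a prior of 3.12. Contrasts were tested two-sided with eBayes and adjusted by Benjamini-Hochberg over all clusters. The steps were first tested on simulated data. A gene with several clusters is represented by the brightest. Named are up to 14 called genes per direction whose 4 array pairs of cortex lay apart from the 4 of hippocampus, up to 4 members per gene list by moderated t, the study's example genes, and up to 6 genes with a called change between durations. Gene lists are described by counts and medians, and the text uses part of the 43 lists. The comparison, members and lists were chosen with earlier results of these data known. The settings varied were the dimmest clusters (left out), 2 quantile normalizations, the 12-week arrays alone, a variance trend, array weights, 3 blocks, clusters with 1 symbol, other thresholds and leaving out each array. Promoters were searched in Python 3.11.15 with pandas 2.3.3, and figures drawn with matplotlib 3.10.9.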

Additional observations from a re-analysis of the deposited data

Results flagged for a closer look

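In 28 genes the test of the difference itself found that the effect of 12 weeks of curcumin differed between cortex and hippocampus (limma, adjusted p under 0.05). In 26 of them the brightest cluster was called, while for Slc25a51 and Gnb1 a dimmer cluster was, whose values are given here, and the brightest was not (adjusted p = 0.125 for Slc25a51 and 0.0681 for Gnb1). On the log2 scale, cortex minus hippocampus, the 13 positive values were 1.56 for Npy2r, 1.06 for Wbp2, 0.93 for Adam11, 0.89 for Meg3, 0.73 for Nlgn2, 0.71 for Flrt1, 0.70 for Agrn, 0.67 for Uqcrfs1, 0.65 for Scaf1, 0.63 for Vamp2, 0.61 for Ssh3, 0.59 for Grik5 and 0.51 for Hexd. The 15 negative values were -1.16 for Cd3e, -0.83 for Cox11, -0.76 for Amd1, -0.75 for Slc15a2, -0.75 for Cldn12, -0.70 for Slc25a51, -0.69 for Rbm18, -0.68 for Spop, -0.67 for Maob, -0.66 for Slc25a44, -0.64 for Oaz1, -0.64 for Ddx6, -0.60 for Rfk, -0.59 for Mob4 and -0.49 for Gnb1. All 4 curcumin minus control array pairs of cortex lay apart from all 4 of hippocampus in every called cluster, and in 21.1% of all clusters. The pairs share the same 2 arrays per group, and the same contrast had picked the called clusters, so this adds no weight to the calls.

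The tissue difference also changed between 6 and 12 weeks in 5 clusters, by the test of that change. The values were 2.77 for cluster 10803049, 1.01 for Meg3, 0.98 for Wbp2, -0.997 for Slc15a2 and -1.01 for Cox11. Cortical controls of the 4 named genes were also at other levels at 6 weeks than at 12 weeks, and the part of that in the change was not tested.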

How the results depend on the processing

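The 32 positive and 20 negative calls changed in number with most settings. All 52 kept their sign wherever they were tested, but in several settings this was fixed in advance. Leaving out 1 array could not turn a sign, since the array pairs of the tissues lay apart in all 52. The 12-week arrays alone, the variance trend and leaving out clusters did not alter the estimated difference itself. Positive and negative calls numbered 15 and 8 without the dimmest 25% of clusters, 56 and 51 with quantile normalization over all arrays, 54 and 47 with quantile normalization within each tissue, 1 and 0 on the 8 arrays of 12 weeks alone, 34 and 31 with a variance trend and robust estimation, 10 and 9 with array weights, and 14 and 19 over clusters with 1 symbol alone. They numbered 5 and 4 at an adjusted p under 0.01 and 119 and 81 under 0.10. Of the 52 clusters, 23 remained without the dimmest clusters, 49 with either quantile normalization, 42 with the variance trend and 19 with array weights. Without 1 array of 12 weeks, positive calls ranged from 3 to 14, negative calls from 1 to 16, calls of the change between durations (5 with all arrays) from 1 to 4, calls of the cortex effect (885) from 26, without replicate 1 of control cortex, to 929, and calls of the hippocampus effect (1) from 0 to 1. A fit without an array has fewer degrees of freedom.

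Replicate numbers were not established as pairing the samples. Deviations of same-numbered arrays of cortex and hippocampus correlated at 0.148 with curcumin and 0.162 on control chow after 12 weeks, but at -0.154 with curcumin and 0.124 on control chow after 6 weeks, and those of curcumin and control arrays at 0.0107 in cortex and -0.429 in hippocampus. With the replicate number as a block, 9 positive and 8 negative differences and 1 change between durations were called, 16 of the 17 clusters among the 52. With cortex minus hippocampus within each number as a block, 3 and 2 differences and 1 change were called, with 2 of the 5 differences among the 52, and Wbp2, Meg3 and Cox11 were not among them. These 3 genes were also not called on the 8 arrays of 12 weeks alone (limma adjusted p up to 0.0951 over both settings). With arrays of the same diet, duration and number as a random block, 40 and 22 were called, including all 52. This block rests on the same replicate numbers, since no label names the pool, and the correlation estimated within it was 0.0389. The change between durations was called in 0 clusters without the dimmest clusters. The cortex effect was called in 136 clusters on the 12-week arrays alone, and the hippocampus effect in 3 without the dimmest clusters, with either quantile normalization and over clusters with 1 symbol, in 2 on the 12-week arrays alone, in 4 with the variance trend and in 0 with array weights.

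Of genes that were not called, Srcin1, Gabrb2 and Nr3c1 passed with quantile normalization (adjusted p = 0.0362 to 0.0407 in limma), Npas4 with differences within each number (0.0366), and Kit with the variance trend (0.0453) and without replicate 1 of curcumin-fed cortex (0.0131). Uncalled genes whose sign turned without 1 array, with their range over the arrays left out, were Col3a1 (-0.65 to 0.0045), Ogn (-1.11 to 0.19), Htr2c (-0.45 to 0.96, with -0.21 in 2 fits), Penk (-1.47 to 0.11), Pdyn (-0.52 to 0.069), Drd1 (-1.86 to 0.19) and Ppp1r1b (-1.23 to 0.11). For the last 4 of these, striatal genes, the positive value is the one without replicate 2 of control cortex. The precision is limited by 2 arrays per group, and no called difference was smaller in size than 0.49.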
